A study of Homo sapiens with 10 samples.

Results

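The genes described here are 47 targets and partners of ATF4, the transcription factor of the integrated stress response, out of 34567 genes in the expression table. They were found in the table by gene symbol and comprised stress transcription factors, feedback regulators, enzymes of serine, asparagine and other amino acid synthesis, amino acid transporters and tRNA synthetases. The list was taken up because the transcript of CHAC1, a glutathione-degrading enzyme, was higher in both MEOX2 experiments, so the changes of CHAC1 and of the other members in those experiments are given as a description, with fitted changes and standard errors (SE) and without p-values. In the knockdown experiment, cells of the human glioma line SNB19 received scramble siRNA (control, n = 3) or siRNA against the homeobox transcription factor MEOX2 (siMEOX2, n = 3) by lipofection. The study describes more than 1 MEOX2 siRNA, and the labels do not say which of them these libraries received. In the overexpression experiment, cells of the human glioma line U87 carried an empty lentiviral vector (EV, n = 2) or a MEOX2 lentivirus (MEOX2 OE, n = 2), and the study selected such stable cells with puromycin. All cells grew in DMEM with fetal bovine serum, the time from transfection to RNA extraction was not given in the sources used here, and each library was made from poly-A RNA. Each experiment used 1 line, and nothing in the labels says whether the replicates were separate cultures, so the tests measure the spread between these libraries, which may be technical. The titles of both MEOX2 OE libraries carry the same bracketed label, OE-2, and the libraries were told apart by the first part of the title. Line, mode of delivery and experiment cannot be told apart.

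When amino acids run short, or when proteins misfold in the endoplasmic reticulum, stress kinases phosphorylate the translation factor eIF2. General protein synthesis then slows while the ATF4 message is translated better. ATF4 pairs with C/EBP proteins at composite C/EBP-ATF response elements and switches on genes for amino acid import, amino acid synthesis and tRNA charging, together with feedback genes that end the response or, when stress lasts, favour cell death. Glioma cells use several of these genes, such as PHGDH and SLC7A11, to supply serine and to make glutathione.

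The start regions of some members carry the response element, and these sequences are shown as a description that does not use the expression values. The members were listed as targets and partners of ATF4, so a share above that of all windows may follow from that choice. RefSeq start windows (GRCh38.p14, 250 bases before to 50 after the annotated start) were matched by symbol for 39 of the 47 members and searched on both strands for TGATGNAAN, in which N is any base. The words found are in capitals below, on the strand of the gene. Where the capitals end in ATCA, the element lies on the opposite strand.
CHAC1, chr15:40953251-40953279: ctcccctgccGTTGCATCActcctgccag
ASNS, chr7:97872458-97872486: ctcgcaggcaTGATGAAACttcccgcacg
ATF3, chr1:212565206-212565234: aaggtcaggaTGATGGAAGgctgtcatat
SLC7A1, chr13:29595663-29595691: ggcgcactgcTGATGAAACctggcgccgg
SLC3A2, chr11:62881725-62881748: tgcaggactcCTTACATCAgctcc
AARS, chr16:70289676-70289704: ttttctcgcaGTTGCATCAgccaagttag
MARS, chr12:57488053-57488081: gccggttccgGTTGCATCAgcgagggatt
NARS, chr18:57621804-57621832: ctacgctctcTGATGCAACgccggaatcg
TARS, chr5:33440956-33440984: gcgcctttcgATTGCATCAgctggtccag
CARS, chr11:3057408-3057436: cggggcggcgGTTGCATCAgattctagga
IARS, chr9:92293693-92293721: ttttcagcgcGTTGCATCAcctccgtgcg
Of the 39 windows, 11 held the element (28.2%), against 3.61% of all 35116 RefSeq windows of that length. The stricter word TGATGCAAN, part of the same search, was in 7 member windows (17.9%) and in 0.866% of all windows. The strictest, TGATGCAAT, was in the window of TARS alone among the members, and in 0.236% of all windows. In 6 of the 11 the gene is a tRNA synthetase. The first base of the word, counted from the annotated start, lay at -210 in CHAC1, -191 in ATF3, -188 in AARS and -68 in ASNS, and between -14 and 36 in the other 7. A matched word is a description of the sequence and not a bound site, and a window without it says only that these letters are not there.

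The libraries held 12533775 to 16560324 counts. MEOX2 itself read 14.4, 15.5 and 16.7 CPM (counts scaled by library size with the TMM method) in the SNB19 control libraries and 3.13, 2.47 and 3.07 after siRNA, a fall of 2.41 ± 0.14 on the log2 scale (edgeR quasi-likelihood adjusted p = 1.08e-11). In U87 it had 0 counts in both EV libraries and 414 and 382 CPM in the OE libraries, which was at least 1430-fold above the floor of 3 counts in an EV library. Among the genes checked for glioma lines, VIM, CD44 and FN1 lay at 12.8 FPKM (counts scaled by gene length and library size) or above in every library. SOX2 was at 5.18 to 14.4 FPKM in SNB19 and at most 0.0952 in U87, and NES at 3.72 to 10.5 and at 0.187 to 3.04. GFAP was at most 0.397, and S100B at most 0.222 in SNB19 and listed at 0 in U87. Among markers of other cell types, PECAM1 was at 0.583 to 4.59 FPKM in SNB19 and at most 0.688 in U87. SYT1 was at most 1.27 in SNB19 and 1.23 in U87, and PTPRC, EPCAM, CDH5, RBFOX3, MBP and MOG were at most 0.763.

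EV replicate 1 of U87 stood apart from the other libraries. Its TMM scaling factor was 0.695, against 0.95 to 1.13 elsewhere, and its log2 CPM correlated with EV replicate 2 at r = 0.970 over genes, where the lowest other pair within a group was at 0.997. Its ratio to EV replicate 2 also moved with gene length: the median log2 ratio was 0.76 in the 3545 shortest genes and -0.65 in the 3545 longest. The members had a median length of 4838 bases, beside 4739 for all genes tested in U87, and 22 of them were higher in EV replicate 1 than in EV replicate 2 and 25 lower. The U87 changes below are therefore given with and without this library. Without it the group has a single EV library, which the fit assumes to vary like the pair of OE libraries.

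After MEOX2 knockdown in SNB19, nearly the whole list was higher. Of the 47 members, 43 rose and 1 fell at an adjusted p threshold of 0.05, in a comparison in which 27.4% of the 15525 genes tested were higher and 28.5% lower. CHAC1, which led to the choice of the list, is counted among the 43 and in the U87 counts below, so these counts are a description. The member median was 1.02 on the log2 scale, beside 0.01 for all genes tested. The fall was that of XPOT, which exports tRNA from the nucleus, and 3 members did not pass: the proline enzyme ALDH18A1 (-0.04), the neutral amino acid transporter SLC1A4 (0.11) and the threonyl-tRNA synthetase TARS (-0.03). The heat map of the members shows this pattern library by library.

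**Figure D1:**
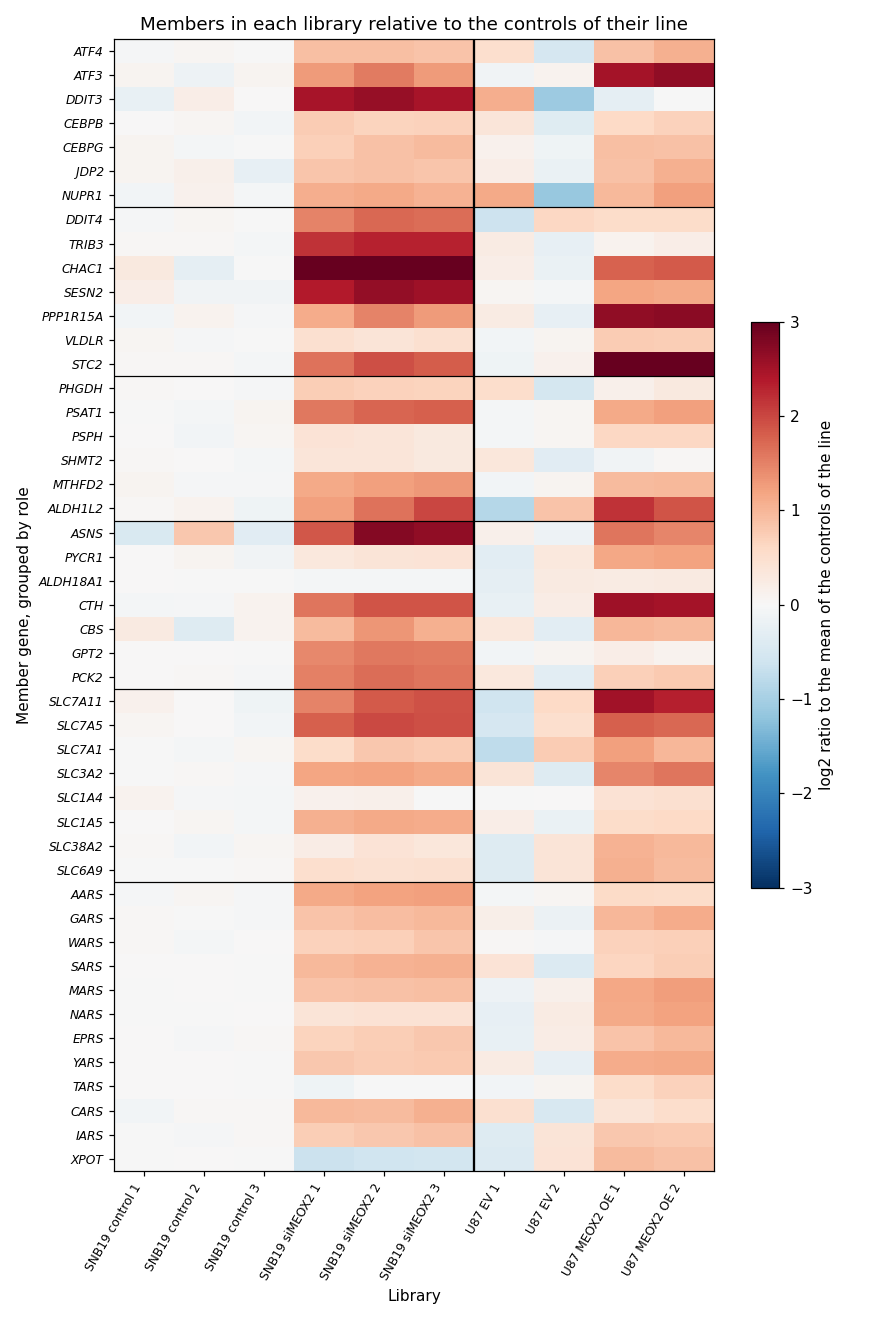
Each row is a member gene, grouped by role, and each column a library, and the colour is the log2 ratio of its TMM-normalised CPM (with 0.5 added) to the mean of the control libraries of its line, cut at -3 and 3. The 3 siMEOX2 columns are red in most rows and blue for XPOT, and the 2 U87 EV columns differ from each other in genes such as DDIT3 and NUPR1.

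All 7 transcription factors and cofactors rose with the knockdown, with a median of 0.89. ATF4, the factor at the head of the response, read 219, 233 and 223 CPM in the control libraries and 419, 420 and 405 after siRNA. The groups were far apart, and the fitted change was 0.89 ± 0.05 (SE), or 1.86-fold. DDIT3 encodes CHOP, the factor that links lasting stress to cell death. It read 3.7, 5.13 and 4.37 CPM in controls and 26.7, 29.1 and 26.4 after siRNA, a change of 2.66 ± 0.12. ATF3, a stress-induced repressor and activator of the same family, went from 17.2, 14.5 and 17.2 CPM to 39.8, 49 and 39.9, a change of 1.41 ± 0.10. Of the remaining 4, NUPR1, a stress-induced chromatin cofactor, changed by 1.13, CEBPG, a dimer partner of ATF4, by 0.87, JDP2 by 0.87 and CEBPB by 0.73. DDIT3 shares 31.6% of its exonic bases with other genes, mostly with MARS on the opposite strand, and the library kit does not keep strand, so reads of that stretch cannot be assigned to either gene with certainty.

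The feedback and stress effectors changed most, with all 7 higher and a median of 1.83. CHAC1, the gene behind the choice of the list, read 16.1, 10.7 and 12.9 CPM in controls and 138, 150 and 148 after siRNA, a fitted change of 3.46 ± 0.09 or 11-fold. SESN2, a sestrin that restrains mTORC1 when leucine is short, went from 39.2, 31.7 and 31.7 CPM to 180, 213 and 202, a change of 2.55 ± 0.08. TRIB3, a pseudokinase that feeds back on ATF4 and CHOP, went from 71.9, 72 and 67.7 CPM to 319, 353 and 350, a change of 2.29 ± 0.06. These 3 genes were at least 4.88-fold higher in the fit, with no overlap between the groups. STC2, a secreted glycoprotein hormone, read 30.3, 30.6 and 28.5 CPM in controls and 93.3, 116 and 106 after siRNA, a change of 1.83 ± 0.08. DDIT4, an mTORC1 inhibitor also known as REDD1, read 149, 160 and 153 CPM and then 433, 510 and 494, a change of 1.65 ± 0.06. PPP1R15A, which encodes the GADD34 subunit that removes phosphate from eIF2, changed by 1.33 ± 0.09, and the lipoprotein receptor gene VLDLR by 0.47 ± 0.07.

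**Figure D2:**
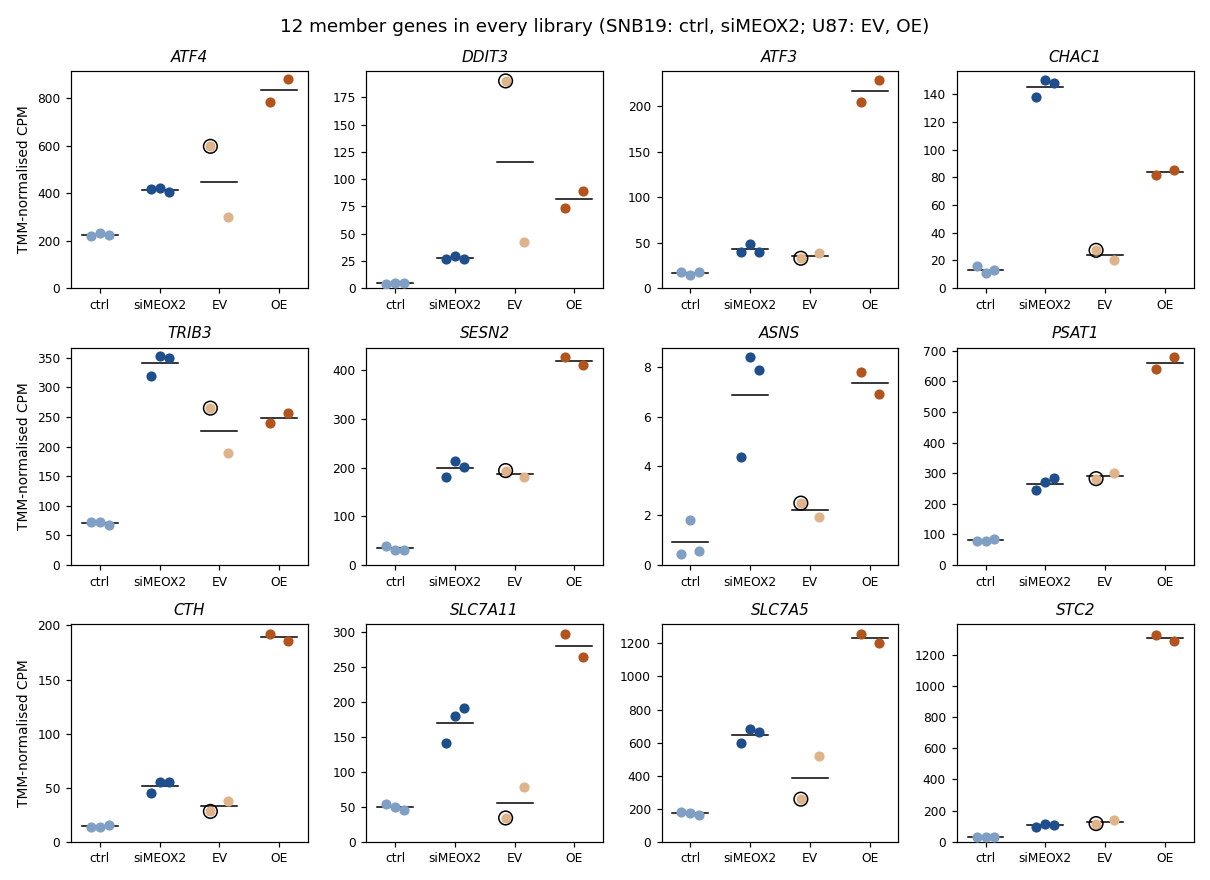
Each panel shows 1 member gene, each point a library in TMM-normalised CPM on an axis that starts at 0, and each line a group mean, with EV replicate 1 ringed. The siMEOX2 points lie above the SNB19 control points in all 12 panels, whereas the ringed point is above both OE points for DDIT3 and TRIB3.

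The 6 genes of serine synthesis and folate-linked carbon metabolism all rose in SNB19, with a median of 0.98. PSAT1, the aminotransferase of the serine pathway, read 79.8, 77.3 and 85.3 CPM in controls and 244, 271 and 283 after siRNA, a change of 1.73 ± 0.06. The steps before and after it changed less, PHGDH by 0.71 and PSPH by 0.37. ALDH1L2, a mitochondrial folate enzyme, was low, at 2.08, 2.22 and 1.82 CPM in controls and 5.45, 7.4 and 9.59 after siRNA, a change of 1.88 ± 0.22. MTHFD2, another mitochondrial folate enzyme, changed by 1.24 and the serine hydroxymethyltransferase SHMT2 by 0.35. MTHFD2 shares 33.2% of its exonic bases with genes on the opposite strand.

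Of the 7 other amino acid enzymes, 6 rose, with a median over the group of 1.63. ASNS, asparagine synthetase, read 0.462, 1.8 and 0.547 CPM in controls and 4.35, 8.39 and 7.9 after siRNA, a change of 2.94 ± 0.35. These are only 8 to 26 and 75 to 136 counts, and 44.6% of the exonic bases of ASNS are shared with an annotated transcript on the same strand, AC079781.5, which counting can treat as ambiguous. The part of that overlap in the low level was not tested. CTH, which makes cysteine from cystathionine, read 13.9, 14.1 and 15.7 CPM and then 45.5, 55.2 and 54.9, a change of 1.85 ± 0.09. CBS, the step before CTH, was near the limit of detection, with 7, 1 and 5 counts in controls and 16, 22 and 17 after siRNA, a change of 2.04 ± 0.47. PCK2, the mitochondrial phosphoenolpyruvate carboxykinase, went from 35.3, 36.3 and 34.2 CPM to 101, 114 and 109, a change of 1.63 ± 0.07. The alanine aminotransferase GPT2 changed by 1.55 and the proline enzyme PYCR1 by 0.39, while ALDH18A1, which acts before PYCR1, read 166, 165 and 165 CPM in controls and 160, 159 and 160 after siRNA.

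Among the 8 amino acid transporters, 7 rose, with a median of 0.92. SLC7A5, the light chain of the large neutral amino acid carrier LAT1, read 178, 174 and 163 CPM in controls and 596, 680 and 662 after siRNA, a change of 1.93 ± 0.06. SLC7A11, the cystine importer that feeds glutathione synthesis, read 54.6, 50.5 and 45.5 CPM and then 141, 180 and 191, a change of 1.78 ± 0.09. Their shared heavy chain, SLC3A2, changed by 1.19, the glutamine carrier SLC1A5 by 1.12 and the cationic amino acid carrier SLC7A1 by 0.72. The glycine carrier SLC6A9 changed by 0.51 and the neutral amino acid carrier SLC38A2 by 0.34.

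The tRNA synthetases moved in a narrower range. Of these and the exporter XPOT, 10 of 12 rose and 1 fell, with a median of 0.81 and a highest value of 1.21, that of the alanyl-tRNA synthetase AARS. SARS (1.04), CARS (1.02), GARS (0.94) and MARS (0.89) followed, and NARS was at 0.44. XPOT read 211, 212 and 211 CPM in controls and 136, 140 and 143 after siRNA, a change of -0.58 ± 0.05. The 9 other cytosolic tRNA synthetases, listed for comparison, had a median of 0.13, with 4 higher and 0 lower. Of those, LARS changed by 0.80, FARSB by 0.59 and KARS by 0.38. The 17 mitochondrial synthetases, which serve a separate translation system, had a median of 0.16, with 8 higher and 3 lower, and HARS2, at -0.55, and PARS2, at 0.63, marked the ends of their range.

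Members with the response element in their start window had a median change close to that of the other members. The 11 with the word had a median of 1.02 after knockdown and 10 of them rose, beside a median of 0.99 and 25 higher among the 28 matched members without it. TARS, whose window holds the strictest word, was among the members that did not pass.

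Genes around the response gave a mixed picture in SNB19. Of 19 further ATF4-linked targets tested, 15 rose and 1 fell, with a median of 0.79. INHBE, an inhibin subunit secreted under stress, changed by 3.01 ± 0.11, from a mean of 3.33 to 28.4 FPKM. FGF21, a stress hormone, changed by 2.89 ± 0.48 from a mean of 0.134 to 1.08 FPKM, and the angiogenic factor VEGFA by 1.60 ± 0.06. These are the largest changes of a list chosen with earlier results of these data known, so they are a description without p-values. Of 18 genes for the stress kinases, eIF2 and its exchange factor eIF2B and their regulators that were tested, 8 rose and 3 fell, with a median of 0.13. The largest of these changes were those of the mitochondrial protease OMA1 (0.93), the eIF2 subunit EIF2S2 (0.63) and the constitutive eIF2 phosphatase subunit PPP1R15B (0.53). The 3 that fell were DELE1 (-0.45) and the stress kinases EIF2AK3 (-0.37) and EIF2AK2 (-0.21). The stress kinases EIF2AK1 (0.06) and EIF2AK4 (-0.06) did not pass. The 16 genes of the ATF6 and XBP1 arm, the chaperone side of the unfolded protein response, split into 6 higher and 6 lower with a median of 0.10. XBP1 rose by 0.91, the chaperone HSPA5 by 0.55 and the sensor ERN1 by 0.52. In the same SNB19 libraries, 7 of 9 interferon response genes tested fell and 1, MX1, rose. The median of the 9 was -0.63. IFI44L was at -0.97 and OAS2 at -0.93, but both were low, at means of 0.807 and 0.248 FPKM in controls and 0.436 and 0.138 after siRNA. MX1 was also low, at 0.286 and 0.515. The part of the interferon genes in the changes of the members was not tested.

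Overexpression of MEOX2 in U87 gave changes of similar size but with a wide spread between the EV libraries. With all 4 libraries, 0 of the 47 members passed the edgeR test in either direction, as did 0% of the 14180 genes tested higher and 0% lower. At an unadjusted p threshold of 0.05, 22 members were higher, where 7.55% of all genes were, and 0 were lower, where 10.1% of all genes were. DESeq2 called 9 members higher and 0 lower, where 2.31% of all genes were higher and 4.68% lower. With limma on FPKM 0 members were called, where 0.0353% of all genes were higher and 0% lower. Both OE libraries lay above both EV libraries for 39 members, where 29.9% of all genes did, and below them for 0, where 28.2% did. The fitted change was positive for 45 of 47 members, with a median of 0.90 beside -0.06 for all genes tested.

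When EV replicate 1 was left out, 44 members rose and 0 fell, in a comparison in which 23.3% of the 14875 genes tested were higher and 24.2% lower. The median was 0.95, beside 0.01 for all genes tested. The 3 that did not pass were DDIT4 (-0.08), ALDH18A1 (-0.02) and GPT2 (0.08). Without EV replicate 2 instead, 41 rose and 3 fell, where 36% of the 14912 genes tested were higher and 35.2% lower. Set against the EV libraries singly, 45 members were higher in both OE libraries than in EV replicate 2 and 41 were higher than in EV replicate 1, as the plot of the U87 libraries shows gene by gene. The share of all genes that did so was not computed, so these counts do not set the members apart from other genes.

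**Figure D3:**
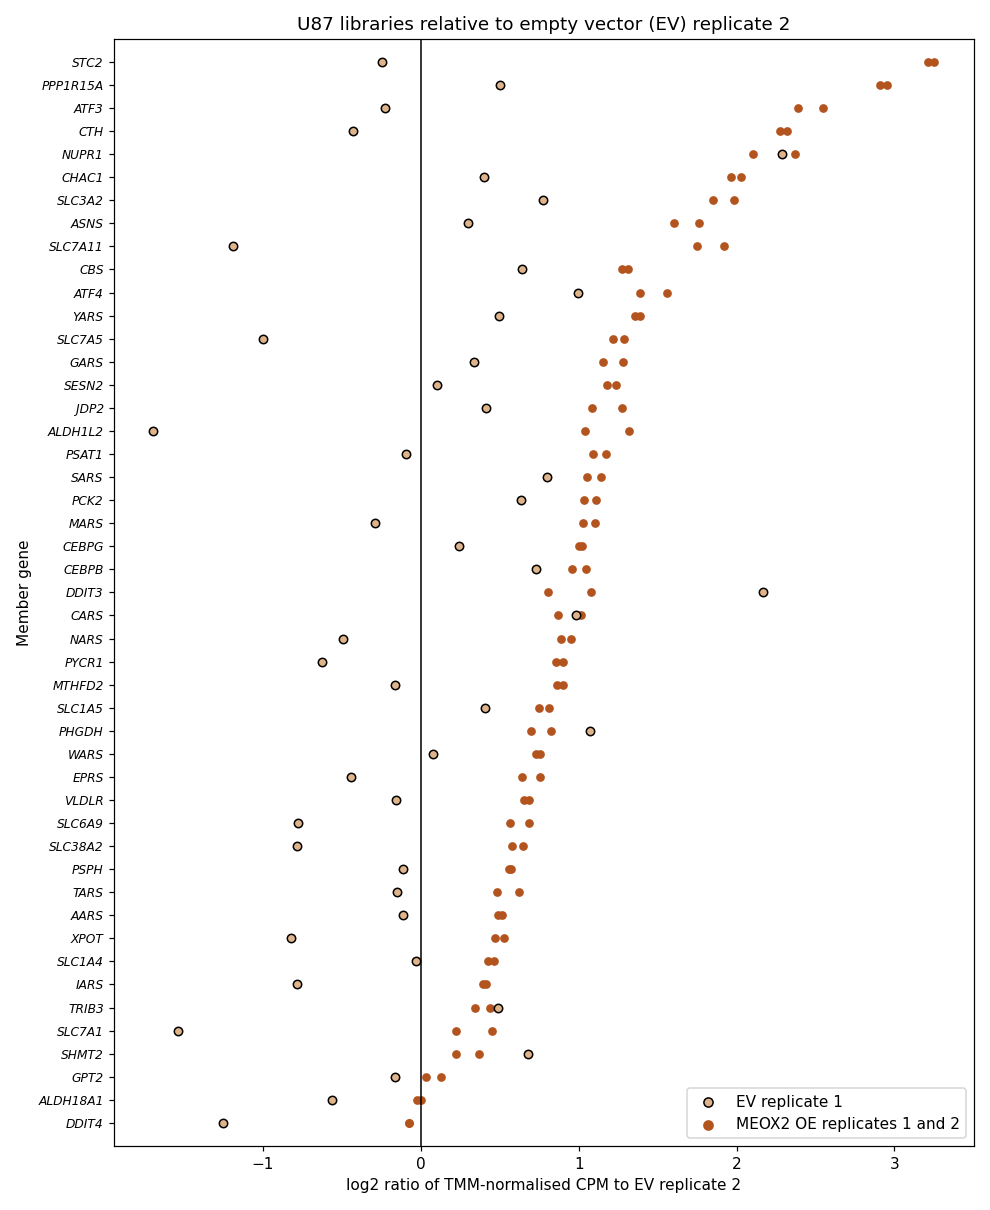
Each row is a member gene and each point a U87 library, placed by the log2 ratio of its TMM-normalised CPM (with 0.5 added) to EV replicate 2, which is the vertical line. The OE points lie to the right of the line for all genes but DDIT4 and ALDH18A1, and the EV replicate 1 points scatter on both sides of it.

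The 5 largest changes in U87 with both EV libraries were those of STC2, PPP1R15A, ATF3, CTH and SLC7A11, and without EV replicate 1 NUPR1, CHAC1, SLC3A2 and ASNS lay above SLC7A11. STC2 read 117 and 139 CPM in the EV libraries and 1330 and 1290 in the OE libraries, a change of 3.35 ± 0.36, and of 3.24 without EV replicate 1. PPP1R15A, the eIF2 phosphatase subunit, went from 143 and 101 CPM to 762 and 786, a change of 2.65 ± 0.37, and of 2.93 without that library. ATF3 went from 32.8 and 38.5 CPM to 204 and 228, a change of 2.59 ± 0.29, and of 2.48 without it. These 3 genes kept a wide gap between groups whichever EV library was used. CTH read 28.1 and 38 CPM and then 192 and 186, a change of 2.51 ± 0.31, or 2.31 without EV replicate 1. SLC7A11 read 34.1 and 78.3 CPM and then 298 and 264, a change of 2.31 ± 0.50, or 1.84 without it. CHAC1 read 27.3 and 20.6 CPM in the EV libraries and 82 and 85.5 in the OE libraries, a change of 1.79 ± 0.30, and of 2.02 without EV replicate 1.

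ATF4 read 597 and 299 CPM in the EV libraries and 783 and 882 with MEOX2, a change of 0.88 ± 0.47. Without EV replicate 1 the change was 1.47, or 2.77-fold. DDIT3 changed its direction with that library. It read 190 CPM in EV replicate 1, 41.9 in EV replicate 2, and 73.7 and 89 in the OE libraries, so the fitted change was -0.53 ± 0.76 with both EV libraries and 0.95 without EV replicate 1. NUPR1, at 356 and 72.6 CPM in the EV libraries and 314 and 378 in the OE libraries, went from 0.68 ± 0.80 to 2.25. In both genes EV replicate 1 lay within or above the OE libraries and EV replicate 2 lay below them. TRIB3 read 265 and 189 CPM and then 240 and 256, so its groups overlapped and its change was 0.11 ± 0.32, or 0.39 without EV replicate 1. SESN2 read 194 and 181 CPM and then 427 and 411, without overlap, a change of 1.15 ± 0.29, or 1.21 without it. DDIT4 read 82.3 and 197 CPM and then 187 and 187, which lies inside the EV pair, a change of 0.41 ± 0.49, or -0.08 without EV replicate 1.

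The synthesis and transport genes were higher with MEOX2 in most cases. PSAT1 read 282 and 301 CPM in the EV libraries and 641 and 680 in the OE libraries, a change of 1.17 ± 0.31, or 1.13 without EV replicate 1. ALDH1L2 read 21.1 and 69.4 CPM and then 174 and 143, a change of 1.80 ± 0.64 that went to 1.18 without EV replicate 1. PHGDH, at 391 and 186 CPM and then 302 and 329, had OE values inside the EV pair, and its change was 0.11 ± 0.46, or 0.76 without EV replicate 1. SHMT2 also had OE values inside the EV pair, with a change of -0.10 ± 0.37, or 0.29 without it. ASNS read 2.5 and 1.94 CPM and then 7.79 and 6.91, a change of 1.71 ± 0.37, or 1.91 without it, on 26 to 96 counts. CBS went from 3.3 and 1.94 CPM to 5.55 and 5.4, a change of 1.05 ± 0.43, or 1.48 without it. PCK2 went from 106 and 68 CPM to 140 and 147, a change of 0.71 ± 0.34, or 1.07 without it. GPT2, which was among the clear changes in SNB19, read 108 and 121 CPM and then 132 and 124 in U87, a change of 0.15 ± 0.27. SLC7A5 read 258 and 516 CPM in the EV libraries and 1260 and 1200 with MEOX2, a change of 1.66 ± 0.47, or 1.25 without EV replicate 1. All 8 transporters had a positive change, with a median of 0.96, or 0.70 without EV replicate 1. All 12 genes of the tRNA group, XPOT included, had positive changes between 0.36 and 1.19 with a median of 0.79, or 0.83 without EV replicate 1, while the 9 other cytosolic synthetases had a median of -0.02, or 0.30 without it. Of those 9, 4 had a positive change, or 7 without EV replicate 1. Their changes ran from -1.60 to 1.10, the highest being that of LARS, which was at 0.81 without EV replicate 1.

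In U87 the genes around the response again did not share 1 direction. The further ATF4-linked targets had a median of 0.66 over 20 genes, and without EV replicate 1, 14 of them rose and 1 fell. The stress kinase and eIF2 genes had a median of -0.00, with 5 higher and 5 lower of 19 without EV replicate 1. The ATF6 and XBP1 arm had a median of -0.15, with 4 higher and 7 lower of 16 without that library. INHBE, which rose steeply in SNB19, was at -0.01 ± 0.27 in U87, and at -0.08 without EV replicate 1. FGF21 was at 1.69 ± 0.73 and VEGFA at 0.58 ± 0.51, or 2.61 and 0.12 without it. XBP1 was at 1.44 ± 0.29, ERN1 at 1.64 ± 0.50 and HSPA5 at -0.21 ± 0.39, or 1.54, 1.15 and -0.11 without it. OMA1 was at -0.76 ± 0.32, EIF2S2 at -0.66 ± 0.50 and PPP1R15B at 0.94 ± 0.54, or -0.89, 0.08 and 0.40 without it.

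Side by side, 42 members had a positive fitted change in both experiments and 5 had opposite signs. Without EV replicate 1 these numbers were 43 and 3. Across the 47 members the changes in the experiments correlated with r = 0.32, or 0.46 without EV replicate 1, a description over genes that share libraries and are not independent. Neither the sign counts nor the correlation was computed over all genes, so they do not set the members apart from other genes. MEOX2 itself moved in opposite directions in these experiments.

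**Figure D4:**
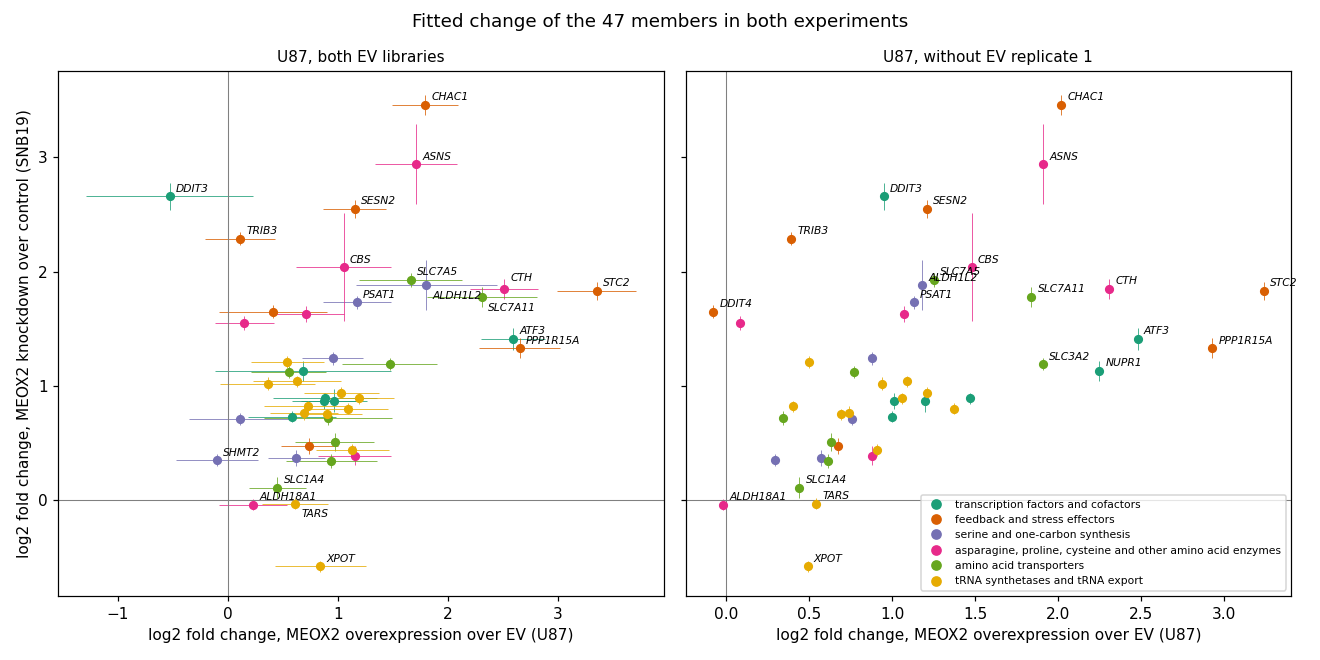
Each point is a member gene coloured by role, with the fitted log2 change after knockdown in SNB19 on the vertical axis and with overexpression in U87 on the horizontal axis, using both EV libraries on the left and EV replicate 2 alone on the right. Bars are SE, and the right panel has no horizontal bars. Most points lie in the upper right of both panels, XPOT lies below 0 on the vertical axis only, and DDIT3 moves from -0.53 to 0.95 on the horizontal axis.

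Whether the changes differed in size between the experiments was tested in a fit over all 10 libraries. The change after knockdown minus the change with overexpression passed the threshold for 11 of the 46 members other than CHAC1, where 15.1% of 17312 genes did. It passed for 30 of these members, where 35.6% of genes did, when EV replicate 1 was left out. The knockdown change was the larger for DDIT3, TRIB3, SESN2, GPT2, PCK2 and AARS. The overexpression change was the larger for ATF3, PPP1R15A, STC2, TARS and XPOT. TRIB3 (difference 2.14 ± 0.22) and GPT2 (1.37 ± 0.17) were raised after knockdown and had little change in U87, while XPOT (-1.45 ± 0.30) was lowered in SNB19 and positive in U87. When EV replicate 1 was left out these differences were 1.84, 1.41 and -1.13. No serine pathway gene and no transporter passed in this fit, and without EV replicate 1, 3 of the 6 serine and folate genes and 6 of the 8 transporters did. These differences rest on the same contrasts that led to the choice of the list.

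Before MEOX2 was changed, the members stood at lower levels in SNB19 than in U87. In the comparison of SNB19 control with U87 EV libraries, which was not used to choose the list but shares its control libraries with both experiments, 37 of 47 members were lower in SNB19, where 28.6% of 17312 genes were lower, and 2 were higher, where 27.9% were higher. The member median was -0.94, beside 0.03 for all genes tested. With EV replicate 1 left out, 42 were lower and 4 higher, where 31% and 32.5% of genes were, with a median of -0.95. All 7 transcription factors and cofactors were lower in both fits.

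The fitted differences come from TMM-scaled counts, whereas the FPKM printed beside them are scaled by the library total. The ratio of the FPKM therefore need not match the fitted difference. DDIT3 differed most, at 2.96, 4.13 and 3.55 FPKM in SNB19 controls and 101 and 30.5 in the EV libraries, a log2 difference of -4.72 ± 0.52 (edgeR adjusted p = 7.9e-05), or -3.27 without EV replicate 1. ALDH1L2 was at 0.256, 0.274 and 0.227 FPKM and at 1.72 and 7.76, a difference of -4.47 ± 0.47 (edgeR adjusted p = 5.41e-05), or -5.09 without EV replicate 1. NUPR1 was at 2.63, 3.08 and 2.74 FPKM and at 43.5 and 12.2, a difference of -3.82 ± 0.51 (edgeR adjusted p = 0.000257), or -2.27 without EV replicate 1. In these genes no SNB19 control library reached either EV library, although the EV libraries themselves lay far apart. CBS differed by -3.24 ± 0.47 on few counts, SESN2 by -2.45 ± 0.15, the interferon-responsive tryptophanyl-tRNA synthetase WARS by -2.30 ± 0.12 and STC2 by -2.10 ± 0.15. PPP1R15A (-2.03), PSAT1 (-1.85) and SLC3A2 (-1.83) completed the 10 largest differences. With EV replicate 1 left out these 7 differences were -2.82 for CBS, -2.41 for SESN2, -2.27 for WARS, -2.23 for STC2, -1.77 for PPP1R15A, -1.90 for PSAT1 and -1.40 for SLC3A2. The members higher in SNB19 were ALDH18A1, at 46.1, 46.1 and 46.5 FPKM against 11.8 and 24, a difference of 1.05 ± 0.17 (edgeR adjusted p = 0.000653), and the glutamyl-prolyl-tRNA synthetase EPRS, by 0.49 ± 0.16 (edgeR adjusted p = 0.0252). These were 0.79 and 0.28 without EV replicate 1. ATF4 was at 91.2, 97.6 and 94.1 FPKM in SNB19 and at 165 and 113 in U87. In TMM-normalised CPM its means were 225 in SNB19 controls and 448 in the EV libraries. The fitted difference was -0.99 ± 0.24 (edgeR adjusted p = 0.0073), or -0.42 without EV replicate 1.

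**Figure D5:**
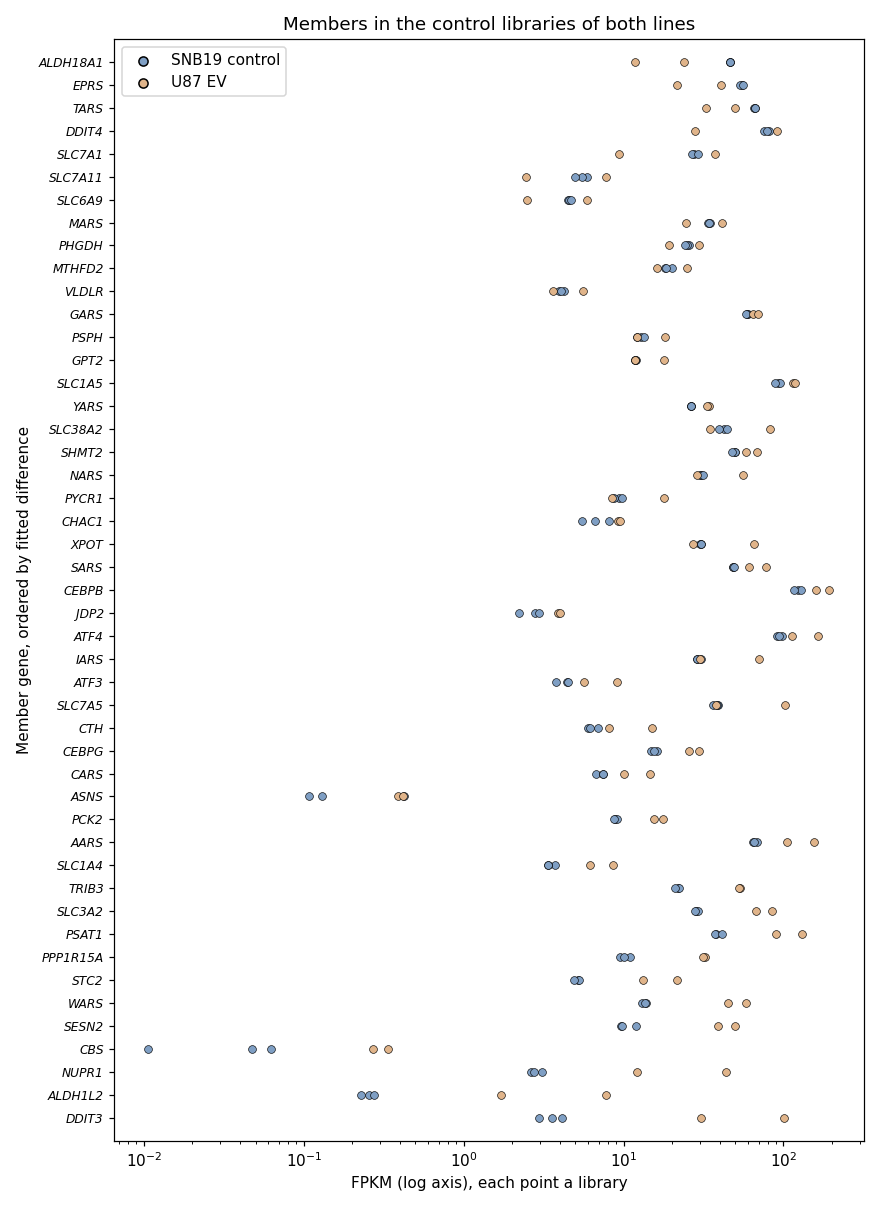
Each row is a member gene, ordered by the fitted difference between the lines, and each point a control library in FPKM on a log axis. The 3 SNB19 control points lie left of both EV points for genes such as DDIT3, ALDH1L2, NUPR1 and CBS, and right of them for ALDH18A1 and EPRS.

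After knockdown, some members in SNB19 reached or passed the levels of the U87 EV libraries, a comparison across experiments that was not tested. CHAC1 was at 73.6, 82.2 and 81.2 FPKM after siRNA, above the 9.2 and 9.51 of the EV libraries, and SESN2 at 57.2, 69.5 and 66.3 against 38.9 and 49.8. In TMM-normalised CPM, SESN2 was at 180, 213 and 202 after siRNA and at 194 and 181 in the EV libraries, which overlap. DDIT3, at 22.4, 25.1 and 22.9 FPKM after siRNA, stayed below both EV libraries, as did ALDH1L2 at 0.704, 0.982 and 1.28. The chaperone side of the stress response was also lower in SNB19 controls, with 13 of the 16 genes of the ATF6 and XBP1 arm lower and 0 higher, whereas the stress kinase and eIF2 genes split into 4 higher and 6 lower of 19. The split of all genes differed between methods, with 4824 higher and 4945 lower in SNB19 in the edgeR fit and 6423 higher (37.1%) and 3057 lower (17.7%) with limma on FPKM, where 26 members were lower and 3 higher.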

How the data were processed

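RNA-seq of 10 libraries of human glioma cell lines was analysed: SNB19 control (n = 3), SNB19 siMEOX2 (n = 3), U87 EV (n = 2) and U87 MEOX2 OE (n = 2). Groups came from the sample titles. Both OE titles end in the same bracketed label, and replicate numbers came from their first part. The treatment labels of some U87 samples name other MEOX genes than their titles, and the titles were followed, which the MEOX2 counts matched. Libraries were made with a poly-A kit that does not keep strand and read as 150 bp pairs. The deposited gene counts were made by the authors with HTSeq 0.11.2 after HISAT2 alignment to GRCh38, as the submitters' processing notes name them, along with DESeq2 1.26.0. The strand and overlap settings of the counting were not given in the sources used here. The authors also deposited FPKM values, which equal the count divided by gene length and by the library's count total. Columns of the authors' own comparisons were not used. Gene IDs matched GENCODE v29, from which overlaps between genes were computed.

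The counts, 12533775 to 16560324 per library, were tested with edgeR 4.0.16 in R 4.3.3 (TMM scaling, filterByExpr, robust quasi-likelihood test), within each line for knockdown and overexpression and over all 4 groups for the comparison of the lines and of the changes. P-values were adjusted by Benjamini-Hochberg over all genes tested, with a threshold of 0.05. SE was the log2 fold change divided by the square root of F. No replicate pair was near enough to be a repeated library. Alternatives were DESeq2 1.42.0, limma 3.58.1 on log2(FPKM + 1), other size factors, no filter, a replicate block, leaving out each library, and the study's rule (log2 fold change above 1 and unadjusted p below 0.05). Values per library were printed for ATF4, DDIT3, CHAC1, ATF3, TRIB3, ASNS and the 14 called members with the largest change in each contrast. For the baseline, the 10 called members with the largest difference were named, and for each other list up to 3 called genes. PPP1R15A, NUPR1, PHGDH, GPT2, ALDH18A1, XPOT and EPRS were given library values after their values were seen. DELE1 and the stress kinases were also named after their values were seen. The members and lists were chosen with earlier results of these data known.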

Additional observations from a re-analysis of the deposited data

Results flagged for a closer look

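The changes of 11 members differed between the experiments in the fit over all 10 libraries (knockdown change minus overexpression change, edgeR adjusted p threshold 0.05). The difference was 3.15 for DDIT3, 2.14 for TRIB3, 1.37 for SESN2, 1.37 for GPT2, 0.89 for PCK2 and 0.64 for AARS, where the knockdown change was the higher. It was -1.54 for STC2, -1.45 for XPOT, -1.35 for PPP1R15A, -1.20 for ATF3 and -0.67 for TARS, where the overexpression change was the higher. CHAC1 had led to the choice of the list and is left out. Without EV replicate 1 the difference was 1.65 for DDIT3, 1.84 for TRIB3, 0.50 for PCK2 and -1.13 for XPOT, and all 11 kept their sign and passed. The experiments differ in line, delivery and direction of MEOX2, which cannot be told apart.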

How the results depend on the processing

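After knockdown, 43 members were higher and 1 lower in every edgeR, DESeq2 and limma fit within SNB19, including each fit that left out a library. With all 4 groups in the fit, 34 were higher and 0 lower (genes: 1167 higher and 1455 lower, against 4259 and 4428), and by the study's rule 24 and 0 (genes: 866 and 803). The median was 0.96 with limma and 0.97 to 1.04 when a library was left out. ALDH18A1 (0.04) and TARS (0.04) changed sign with limma, and TARS ran from -0.05 to 0.02 when a library was left out, none passing the test. With overexpression, 0 members were higher in the main comparison, 10 without a filter, 9 with DESeq2, 34 with all 4 groups and 17 by the study's rule, and 0 to 44 higher and 0 to 3 lower when a library was left out. Genes called were 0 higher and 0 lower, then 611 and 1252 without a filter, 327 and 664 with DESeq2, 5 and 0 with limma, 1882 and 2493 with all 4 groups, 856 and 1238 by the study's rule, 3459 and 3593 without EV replicate 1, 5367 and 5249 without EV replicate 2, and about equally few (32 and 8, 30 and 7) without either OE library. The median was 1.10 with limma, which moved the median of all genes from -0.06 to 0.13, and 0.88 to 0.95 when a library was left out. With limma, DDIT3 (0.09) and SHMT2 (0.19) changed sign. When a library was left out, the change ran from -1.20 to 0.95 for DDIT3, -0.36 to 0.29 for SHMT2, -0.02 to 2.25 for NUPR1, -0.08 to 0.39 for TRIB3, -0.29 to 0.76 for PHGDH and -0.02 to 0.94 for CARS, with the low value without EV replicate 2 and the high value without EV replicate 1. The ends were the other way round for DDIT4 (-0.08 to 1.20) and ALDH18A1 (-0.02 to 0.57). Between the lines, 1 member was higher and 36 lower without a filter (genes: 4739 higher and 4787 lower), and 1 and 21 by the study's rule (genes: 3840 and 3467). When an SNB19 library was left out, 1 or 2 were higher and 37 or 38 lower (genes: 4063 to 4461 higher and 4037 to 4587 lower). The member median of this comparison was -0.94 in the main fit, -0.95 without EV replicate 1 and -1.03 without EV replicate 2. With limma on FPKM it was smaller in size, at -0.44, where the median of all genes was 0.21. Without a library, 6 to 38 of all 47 members differed between the changes, where 4.74% (without OE replicate 2) and 54.6% (without EV replicate 2) of all genes did. The lowest counts came without an OE library and the highest without an EV library. The cause of these moves was not tested.

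Same-numbered libraries did not deviate together (r = -0.01, -0.03 and 0.07 in SNB19, -0.28 in U87), so the numbers were not taken as pairs. With a replicate block, 43 members were higher and 1 lower after knockdown, and 6 were higher with overexpression (215 genes higher and 269 lower), with a median of 0.96. The crossed replicate block, added after seeing the data, called 7 members (516 genes higher and 651 lower), with a median of 0.96. The distance between the EV libraries limits what the U87 comparison can resolve.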
